A study of Homo sapiens with 12 samples.

Results

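The 10 genes described here encode secreted or cell-surface signals of inflammation: the chemokines IL8 (the symbol the files use for CXCL8), CXCL2, CXCL3, CXCL10, CCL3 and CCL4, the tumour necrosis factor family ligands TNF, LTA and LTB, and the growth factor CSF1. They were matched by symbol, and all 10 were found among the 44147 genes that the files list. The exonic counts of these libraries had already been seen when the 10 were chosen, so their values, their fold changes and the counts of members past a threshold are given as a description and test nothing. RNA was sequenced from CCRF-CEM, an established line of T lymphoblast leukemia, as the parent line (SLFN11 wild-type) and as a derivative in which SLFN11, a protein that acts on stalled replication forks, was knocked out. Each line was cultured either for 6 h with prexasertib at 100 nM, which inhibits the checkpoint kinase CHK1, or with DMSO, its solvent, for a time that the labels do not state. The 4 groups (parent with DMSO, parent with prexasertib, knockout with DMSO and knockout with prexasertib) held 3 libraries each, 12 in all. The labels do not say how the knockout was made, whether the knockout line is 1 clone or whether a group's 3 libraries stem from separate cultures. The p-values below therefore measure the spread between these libraries, which may be technical.

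The treatment labels carry a conflict that bears on every comparison below. Every title carries a library name, and in 12 of 12 titles that name belongs to a file deposited under the opposite treatment of the line, while 0 of 12 name the file of their own record. Each file was read as belonging to the record that holds it, and the groups are therefore called labelled DMSO and labelled prexasertib. Should the names in the titles be right, all treatment differences below have the opposite sign, as does their contrast between lines, and what is said of knockout against parent cells under one label applies to the other label. The line of each library is the same under both readings.

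Chemokines attract leukocytes through G protein-coupled receptors. IL8 attracts neutrophils through CXCR1 and CXCR2, and CXCL2 and CXCL3 do so through CXCR2. CXCL10 attracts activated T cells through CXCR3, and CCL3 and CCL4 attract monocytes and T cells, CCL3 in part through CCR1. TNF and LTA bind the receptors TNFRSF1A and TNFRSF1B, and LTB anchors lymphotoxin at the cell surface, where it acts through LTBR. CSF1 sustains monocytes and macrophages through CSF1R. Transcription of many of these genes is driven by NF-kappaB and AP-1 factors, and AU-rich elements in their mRNAs make several of the transcripts short-lived. Lymphotoxins are products of lymphocytes, while IL8 and the CXC chemokines are best known from myeloid, epithelial and endothelial cells.

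The promoters are shown because 3 of the chemokine genes share short stretches that TNF lacks. RefSeq windows from 250 bases before to 50 after the transcription start (build GRCh38.p14) were found for 8 of the 10 genes. Printed 5' to 3' on the gene's strand, the windows of IL8 (chr4:73740319-73740618, plus strand), CXCL2 (chr4:74099146-74099445, minus strand), CXCL3 (chr4:74038640-74038939, minus strand) and TNF (chr6:31575315-31575614, plus strand) are as follows, with capitals for matches to GGNNNTTCC (the NF-kappaB-like motif, GGAANNNCC on the other strand), TGANTCA (AP-1), TGACGTCA (cyclic AMP response element) and TATAAA (the TATA box motif, searched also as its reverse complement).
IL8: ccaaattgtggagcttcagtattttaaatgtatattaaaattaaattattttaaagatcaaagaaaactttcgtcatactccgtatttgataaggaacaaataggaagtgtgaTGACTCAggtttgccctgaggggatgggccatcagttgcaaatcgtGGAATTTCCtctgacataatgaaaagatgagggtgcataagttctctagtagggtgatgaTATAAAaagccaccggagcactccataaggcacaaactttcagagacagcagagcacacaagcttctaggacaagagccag
CXCL2: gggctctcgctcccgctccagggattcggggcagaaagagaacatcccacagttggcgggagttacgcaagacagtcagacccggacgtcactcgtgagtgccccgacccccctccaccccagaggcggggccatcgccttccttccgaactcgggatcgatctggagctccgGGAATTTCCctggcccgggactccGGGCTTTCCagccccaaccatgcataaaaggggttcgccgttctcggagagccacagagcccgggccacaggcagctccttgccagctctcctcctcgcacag
CXCL3: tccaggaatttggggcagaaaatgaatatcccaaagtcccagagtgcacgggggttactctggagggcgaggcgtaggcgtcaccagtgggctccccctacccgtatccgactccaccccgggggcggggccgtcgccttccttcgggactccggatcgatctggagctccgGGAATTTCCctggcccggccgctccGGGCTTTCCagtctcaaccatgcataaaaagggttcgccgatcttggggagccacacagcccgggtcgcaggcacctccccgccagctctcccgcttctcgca
TNF: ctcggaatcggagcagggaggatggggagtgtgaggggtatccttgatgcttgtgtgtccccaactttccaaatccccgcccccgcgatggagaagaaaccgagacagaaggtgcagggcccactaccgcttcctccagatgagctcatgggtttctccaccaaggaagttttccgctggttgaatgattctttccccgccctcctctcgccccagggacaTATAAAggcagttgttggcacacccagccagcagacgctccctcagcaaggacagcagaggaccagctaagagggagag

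All motifs were searched on both strands, and the letters GGNNNTTCC and its reverse complement can overlap at a palindromic match. The IL8 window holds 1 AP-1 match, TGACTCA at -137 to -131, 1 NF-kappaB-like match, GGAATTTCC at -91 to -83, and TATAAA at -31 to -26, with positions counted from the start site. CXCL2 and CXCL3 both hold GGAATTTCC (at -77 to -69 and at -78 to -70) and GGGCTTTCC (at -53 to -45 in both). The same pair stands in the window of their neighbour CXCL1. The windows of CXCL2 and CXCL3 were 73.7% identical in a global alignment, and that of CXCL1 was 69.7% identical with CXCL2 and 82.5% with CXCL3. IL8 was 42.6% identical with CXCL2 and 42.9% with CXCL3. The window of CXCL10 was 48.7% identical with IL8, 44.7% with CXCL2 and 43.1% with CXCL3, so IL8 was no closer to CXCL2 and CXCL3 than to CXCL10. CXCL10 holds 3 NF-kappaB-like matches, LTB holds GGAAAGTCC, and LTA holds GGGGCTTCC in 1 of its 2 windows. In the TNF window the only match is TATAAA at -29 to -24. Of the 35093 RefSeq windows of this length, 20.1% hold an NF-kappaB-like match, 7.71% an AP-1 match, 1.85% a cyclic AMP response element match and 11.5% TATAAA. A match says only that these letters occur in the window, and factor binding was not measured here. Sites spelled otherwise were not searched, so a window without a match, such as that of TNF for GGNNNTTCC, may still hold a site.

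**Figure D1:**
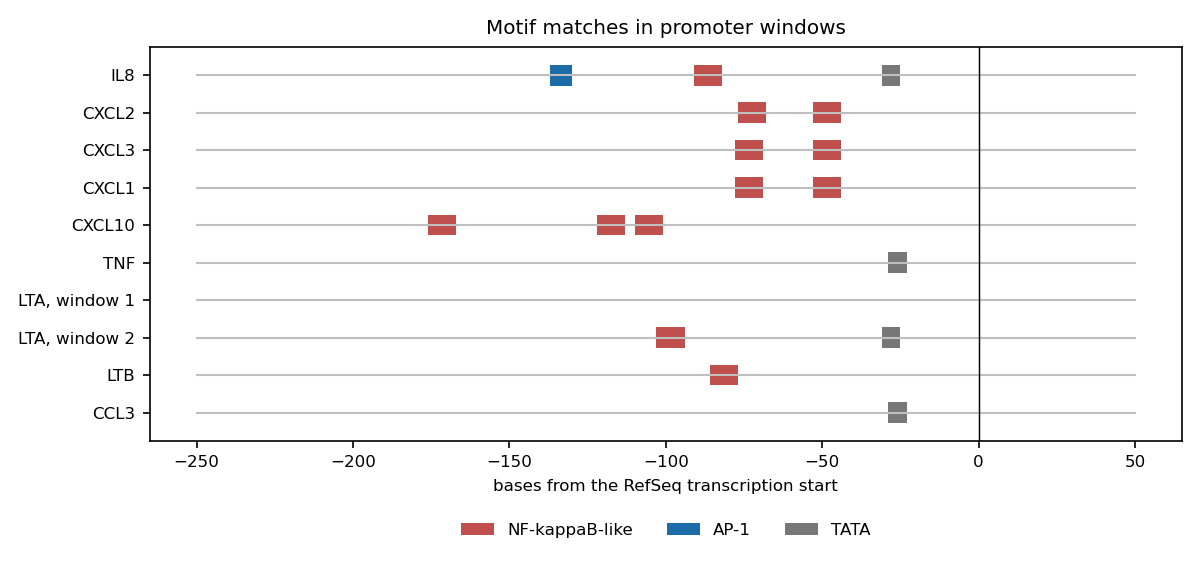
Motif matches in RefSeq promoter windows of 8 members and CXCL1, drawn by distance in bases from the transcription start (window 250 bases before to 50 after), with 1 row for the first listed window of each gene, a second row for LTA, and coloured bars for matches on either strand. CXCL1, CXCL2 and CXCL3 carry a pair of NF-kappaB-like matches at nearly the same distances, IL8 carries 1 such match with an AP-1 match upstream, and TNF carries a TATA match only.

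In the hg19 coordinates of the files the genes fall into 3 clusters and 2 single loci. IL8 (chr4:74606223-74609433), CXCL3 (chr4:74902306-74904524) and CXCL2 (chr4:74962752-74965010) lie in order on chromosome 4, with 292872 bases between IL8 and CXCL3 and 58227 between CXCL3 and CXCL2. LTA (chr6:31539831-31542101), TNF (chr6:31543344-31546113) and LTB (chr6:31548302-31550299) are neighbours on chromosome 6, with 1242 and 2188 bases between them. CCL3 (chr17:34415602-34417515) and CCL4 (chr17:34430983-34433014) lie 13467 bases apart on chromosome 17. CXCL10 (chr4:76942273-76944650) is 1977262 bases beyond CXCL2, and CSF1 (chr1:110452864-110473614) stands alone.

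Sequencing gave 47887791 to 77548202 exonic reads per library. Levels are given as CPM, counts per unit of library size, scaled by the TMM method, and a mean is followed by its SD over the 3 libraries of a group (n = 3). Counts of low genes were mostly even (72.2 to 76.3% of genes with 1 to 10 reads in a library), so the deposited counts appear to hold both mates of a read pair. Parent labelled prexasertib replicate 1 stood apart from its group: intronic reads were 30.3% of the sum of its exonic and intronic reads, against 23.9 to 26.4% in the other 11 libraries. Reads of SLFN11 were present in both lines, at 91.2 to 119 CPM in the parent libraries and 65.9 to 90.7 in the knockout libraries, ranges that do not overlap. The fall of SLFN11 in the knockout passed the edgeR test under labelled DMSO (log2 fold change -0.51, adjusted p = 6.02e-09) and under labelled prexasertib (-0.41, adjusted p = 5.55e-07), and read counts over a whole gene do not show whether its protein is made. All 13 T-lineage markers had a mean of at least 1 CPM, and their sum separated the groups: 1880 to 2000 CPM in parent libraries labelled DMSO, 2159 to 2262 in those labelled prexasertib, and 2369 to 2465 in the knockout libraries. Of 12 myeloid markers only CD68 did (2.49 CPM), FCGR3A and S100A8 were at 0, CD14, LYZ, MPO and SPI1 were at or below 0.0979 CPM, and the list summed to 3.93 to 4.999 CPM in parent and 3.15 to 4.09 in knockout libraries. Of 7 B-cell markers CD79A (25 CPM) and CD79B (10.6 CPM) had a mean of at least 1 CPM and MS4A1 was at 0, and the list summed to 25.2 to 28.1 CPM in parent libraries labelled DMSO, 30.1 to 34.9 in those labelled prexasertib and 40.7 to 43.9 in knockout libraries. CD79A was higher in knockout than in parent cells under both labels (log2 0.88 and 0.58, edgeR adjusted p = 2.96e-10 and 1.07e-06). Of 10 epithelial, fibroblast and erythroid markers EPCAM (5.64 CPM) and KRT8 (1.33 CPM) had a mean of at least 1 CPM and KRT19 was at 0, and the list summed to 3.13 to 4.62 CPM in parent and 11.6 to 13.17 in knockout libraries. EPCAM was higher in knockout cells by 2.67 and 2.97 on the log2 scale (adjusted p = 2.49e-14 and 1.2e-14). The part of these marker differences in the results below was not tested.

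Per length, as the authors' TPM averaged over the 12 libraries, the order of levels was LTB 18.6, TNF 10.4, LTA 2.75, IL8 1.26, CXCL3 1.201, CXCL2 0.325, CSF1 0.132, CCL4 0.127, CXCL10 0.0072 and CCL3 0.0049. The neighbours IL8 and CXCL3 in this order, and CSF1 and CCL4, differ by less than the spread over libraries. The order was not the same in each group. IL8 had 4.49 ± 0.42 TPM and CXCL3 2.87 ± 0.109 in parent cells labelled DMSO, whereas in knockout cells labelled DMSO IL8 had 0.184 ± 0.05 and CXCL3 0.683 ± 0.0899, with n = 3 throughout.

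**Figure D2:**
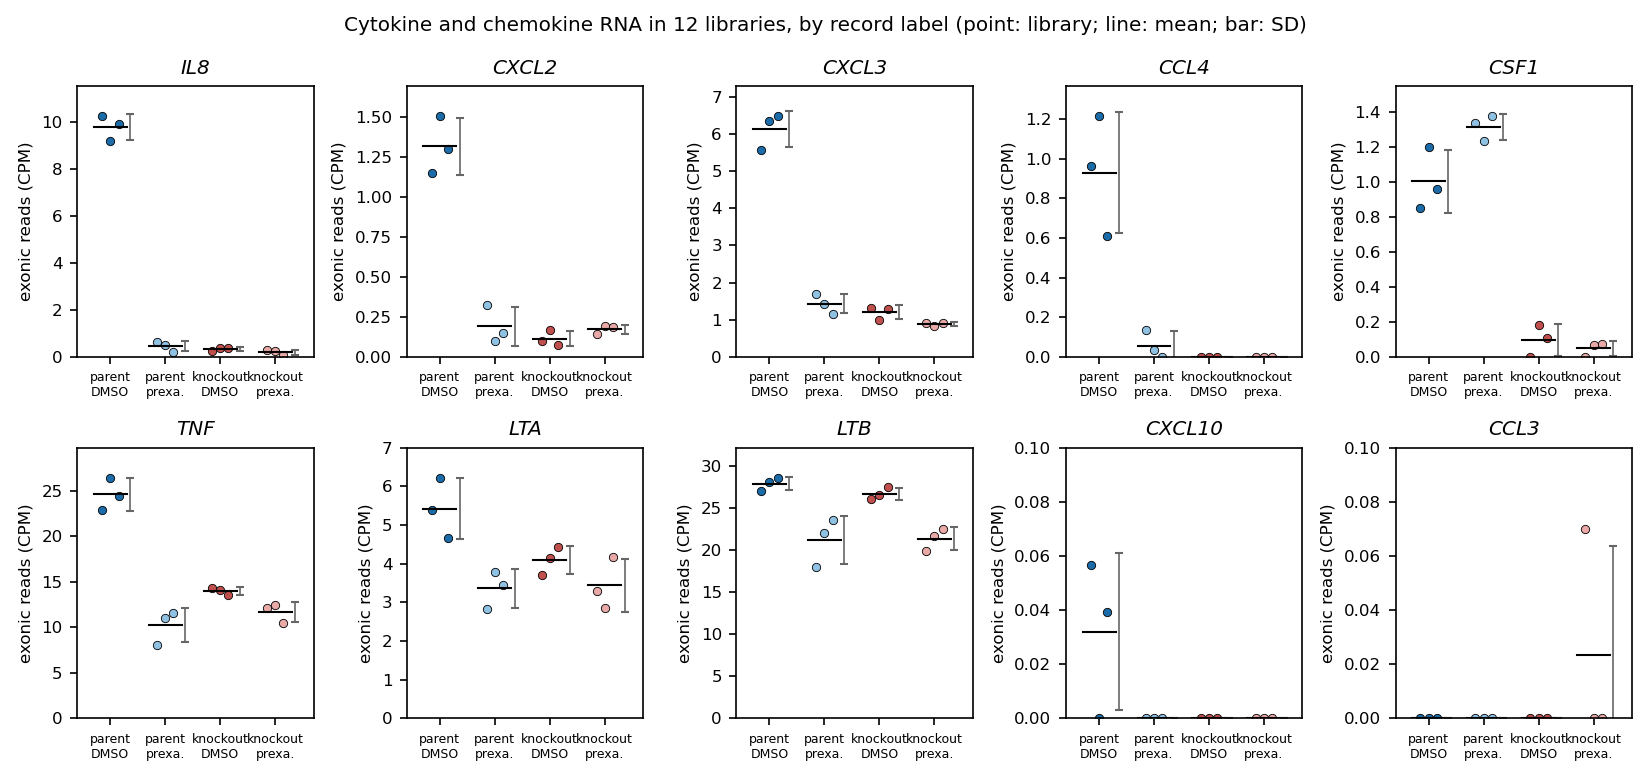
Exonic reads (CPM, linear axes from 0) of the 10 genes in each of the 12 libraries, grouped by line and record label, with a line for the mean of 3 libraries and a bar for the SD. IL8, CXCL2, CXCL3, CCL4 and TNF stand highest in the 3 parent libraries labelled DMSO, LTB separates by label in both lines, and CSF1 separates by line.

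IL8, the neutrophil attractant, was abundant in 1 of the 4 groups. It had 10.3, 9.21 and 9.92 CPM in the parent libraries labelled DMSO, and 0.651, 0.487 and 0.212 CPM in those labelled prexasertib. Knockout libraries had 0.229, 0.366 and 0.395 CPM under labelled DMSO and 0.28, 0.243 and 0.0737 under labelled prexasertib. The 3 parent libraries labelled DMSO, with 1860 reads in all, lie far above the other 9, whose groups held 78, 64 and 34 reads. Among these 9 the parent libraries labelled prexasertib overlap with the knockout libraries. In bulk cultures such as these, fewer cells with the transcript and less of it per cell cannot be told apart. The log2 fold change between labelled prexasertib and labelled DMSO was -4.40 ± 0.25 (SE) in parent cells, 21.1-fold, and -0.68 ± 0.40 in knockout cells, and the difference between these was -3.72 ± 0.52. Without parent labelled prexasertib replicate 1 the parent value was -4.77 ± 0.25. Intronic reads of IL8 showed the same order at lower depth, with 110 reads in the parent group labelled DMSO and 8, 4 and 2 in the other groups.

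CXCL3 and CXCL2 encode close relatives of each other that use the receptor CXCR2. CXCL3 had 5.58, 6.34 and 6.48 CPM in the parent libraries labelled DMSO, 1.68, 1.43 and 1.17 in parent cells labelled prexasertib, 1.32, 0.991 and 1.29 in knockout cells labelled DMSO, and 0.91, 0.817 and 0.922 in knockout cells labelled prexasertib. It was again highest in parent cells labelled DMSO, and within each line the labelled treatments did not overlap. The log2 fold change was -2.10 ± 0.16 in parent and -0.45 ± 0.18 in knockout cells, with a difference of -1.65 ± 0.24. CXCL2 had 1.15, 1.51 and 1.3 CPM in the parent libraries labelled DMSO, 0.325, 0.0974 and 0.148 in parent cells labelled prexasertib, 0.102, 0.168 and 0.0718 in knockout cells labelled DMSO, and 0.14, 0.191 and 0.184 in knockout cells labelled prexasertib. The last 3 groups overlap, at 32, 23 and 29 reads per group against 250. The log2 fold change of CXCL2 was -2.77 ± 0.38 in parent cells and 0.57 ± 0.48 in knockout cells, with a difference of -3.34 ± 0.62. Of the 32 reads of the parent group labelled prexasertib 19 lay in replicate 1, and without it the parent value was -3.45 ± 0.44 and the difference -4.03 ± 0.63. These genes resemble each other and CXCL1 in sequence, so reads could be shared among them by the authors' counting, whose rule for such reads is not given in the sources used here.

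CXCL1, the nearest relative outside the 10, had 52 reads in parent cells labelled DMSO, 8 in parent cells labelled prexasertib, 11 in knockout cells labelled DMSO and 0 in knockout cells labelled prexasertib. Its level in parent cells was lower under labelled prexasertib, which passed the edgeR test (log2 fold change -2.46 ± 0.70, adjusted p = 0.00749). The paralogs CXCL5 and CXCL6 had at most 8 reads per group. CXCL10, an interferon-induced T-cell attractant, had 4, 0 and 2 reads in the parent libraries labelled DMSO and 0 in the other 9. None of these 6 reads lay outside a region shared with another gene. A count of 0 in a group allows up to 0.018 CPM (3 reads over the group), or more if each read pair was counted by both mates. Its level was therefore not detectable at this depth.

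CCL4, a CC chemokine made by activated T cells and macrophages, was detected in parent cells only. The parent libraries labelled DMSO held 68, 83 and 31 reads (0.963, 1.21 and 0.609 CPM), and those labelled prexasertib held 8, 2 and 0 (0.137, 0.0325 and 0 CPM). All 6 knockout libraries held 0. The 2 parent groups did not overlap, and the log2 fold change between them was -3.94 ± 0.64, or -5.55 ± 0.79 without parent labelled prexasertib replicate 1. Under labelled DMSO the level was at least 63.8-fold lower in knockout than in parent cells, taking 3 reads over the 3 knockout libraries as the limit of a count of 0, and under labelled prexasertib at least 3.37-fold lower. The second bound rests on 10 reads, 8 of them in parent labelled prexasertib replicate 1, without which 2 reads remain, fewer than the 3 taken as the limit, and no bound can be given. The deposited counts appear to hold both mates of a read pair. With a limit of 3 read pairs in place of 3 reads, both bounds would be lower. The near-identical copies CCL4L1 and CCL4L2 showed 19 and 36 reads in parent cells labelled DMSO and 0 in each other group, and reads of CCL4 and these copies cannot be told apart with certainty. CCL3, its neighbour, had 4 reads in knockout labelled prexasertib replicate 1 and 0 in the other 11 libraries, and none of the 4 lay outside a region shared with another gene. Its copies CCL3L1 and CCL3L3 had at most 5 reads per group.

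TNF, the prototype of its family, was one of the more abundant members. It had 22.9, 26.4 and 24.4 CPM in the parent libraries labelled DMSO, 8.07, 11.1 and 11.6 in parent cells labelled prexasertib, 14.3, 14.1 and 13.5 in knockout cells labelled DMSO, and 12.1, 12.4 and 10.4 in knockout cells labelled prexasertib. Parent cells labelled DMSO lay above all other libraries, knockout cells labelled DMSO came next, and the groups labelled prexasertib overlapped each other. The log2 fold change was -1.27 ± 0.10 in parent cells, 2.41-fold, and -0.26 ± 0.10 in knockout cells, with a difference of -1.01 ± 0.15. Knockout cells labelled DMSO were lower than parent cells labelled DMSO by -0.82 ± 0.10 on the log2 scale.

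Intronic reads of TNF come from unspliced RNA or from DNA. As ratios of group means, though not in CPM, they differed more between the labels than its exonic reads. Parent cells labelled DMSO had 6.93 ± 0.425 CPM of intronic reads, against 2.30 ± 0.888 in parent cells labelled prexasertib, and knockout cells had 3.60 ± 0.229 and 1.93 ± 0.137 (SD, n = 3). In knockout cells the exonic means were 13.96 ± 0.431 and 11.7 ± 1.07 CPM. The intronic share of TNF was accordingly 19.2 to 22.0% in knockout cells labelled DMSO and 12.6 to 15.7% in those labelled prexasertib, without overlap. Each share here is intronic reads over the sum of exonic and intronic reads. Some reads enter both counts: knockout labelled DMSO replicate 1 had 1123 exonic and 286 intronic reads of TNF, but 1286 reads in all. The intronic share of all gene reads in these 6 libraries lay between 24.9 and 26.0%. In parent cells the share of TNF overlapped between labels, at 21.0 to 23.1% and 14.21 to 21.8%, and the lowest value was that of replicate 1 labelled prexasertib, the library with the highest intronic share of all genes. The gene models of CXCL3 and CCL4 hold no intron sequence, and IL8, LTA, CXCL2 and CSF1 had at most 110 intronic reads in a group. LTB had intronic group means of 1.47 to 1.95 CPM. Its intronic share was 5.07 to 6.79% in parent cells labelled DMSO and 7.81 to 8.79% in those labelled prexasertib, without overlap, and 4.86 to 6.88% and 5.18 to 7.14% in knockout cells, with overlap. In parent cells the intronic share of all gene reads was also higher under labelled prexasertib without overlap, at 25.9 to 30.3% against 23.9 to 25.6%.

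**Figure D3:**
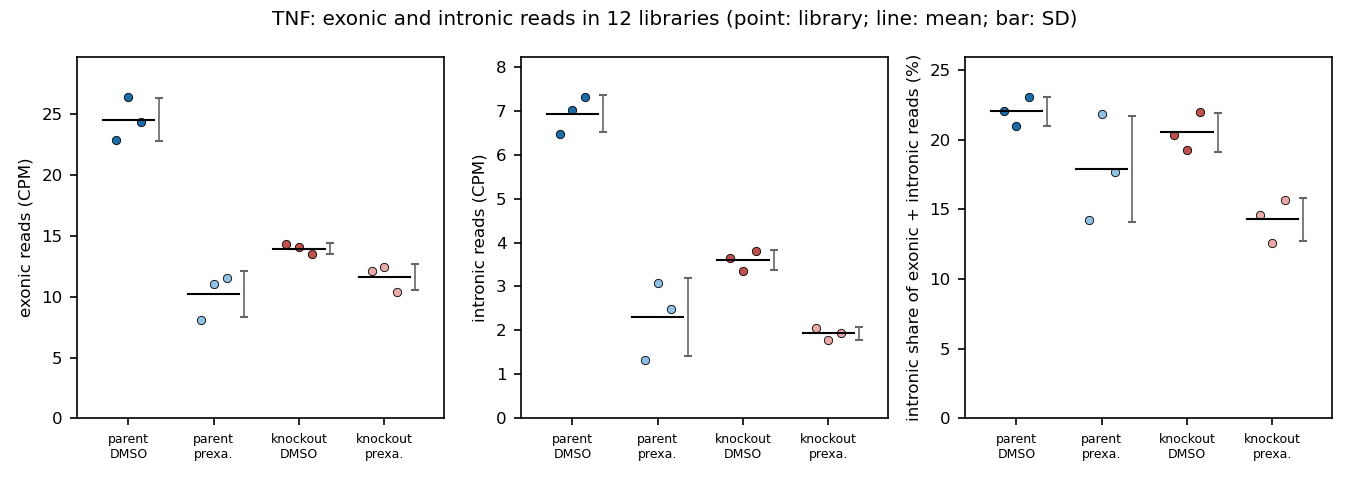
TNF in the 12 libraries: exonic CPM, intronic CPM and the intronic share of its exonic and intronic reads (%), with a line for the mean of 3 libraries and a bar for the SD. Intronic reads lie between 1.34 and 7.31 CPM, and the share in knockout cells is 19.2 to 22.0% under labelled DMSO and 12.6 to 15.7% under labelled prexasertib.

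LTA, soluble lymphotoxin, had 5.4, 6.23 and 4.66 CPM in the parent libraries labelled DMSO, 2.83, 3.8 and 3.46 in parent cells labelled prexasertib, 3.72, 4.16 and 4.43 in knockout cells labelled DMSO, and 3.29, 2.85 and 4.18 in knockout cells labelled prexasertib. Parent cells labelled DMSO lay above the other 9 libraries, which overlapped. The log2 fold change was -0.70 ± 0.15 in parent and -0.25 ± 0.15 in knockout cells, a difference of -0.44 ± 0.21. LTB, the membrane anchor of lymphotoxin, had 27.1, 28.1 and 28.6 CPM in the parent libraries labelled DMSO and 18, 22 and 23.5 in those labelled prexasertib. Knockout cells had 26, 26.6 and 27.4 CPM under labelled DMSO and 19.8, 21.7 and 22.5 under labelled prexasertib. LTB thus separated by label in both lines, and the lines overlapped under both labels. Its log2 fold change was -0.40 ± 0.08 in parent and -0.32 ± 0.08 in knockout cells, and the difference between the lines was -0.08 ± 0.11. The 3 neighbouring genes of chromosome 6 therefore had differences between the lines of -1.01 (TNF), -0.44 (LTA) and -0.08 (LTB) on the log2 scale in their response to the labelled treatment.

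CSF1, the macrophage growth factor, followed the line rather than the label. It had 0.85, 1.2 and 0.963 CPM in the parent libraries labelled DMSO and 1.34, 1.23 and 1.38 in those labelled prexasertib. Knockout cells had 0, 0.183 and 0.108 CPM under labelled DMSO and 0, 0.0696 and 0.0737 under labelled prexasertib. The 6 parent libraries, with 49 to 82 reads each, lay above the 6 knockout libraries, with 0 to 12. Knockout cells differed from parent cells by a log2 fold change of -3.42 ± 0.54 under labelled DMSO and -4.73 ± 0.61 under labelled prexasertib. Of the 18 reads in knockout cells labelled DMSO 12 lay in replicate 2 and 0 in replicate 1, and the first value was -4.41 ± 0.63 without replicate 2 and -2.77 ± 0.43 without replicate 1. Between the labels in knockout cells, at 18 and 8 reads, the log2 fold change of -0.93 became 0.05 without that replicate 2 and -1.59 without that replicate 1. CSF1 was the only tested member whose level in parent cells was higher under labelled prexasertib, by 0.39 ± 0.40, without overlap of the 3 libraries of each label.

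Of the 10 genes, 8 passed the filter on low counts and were part of the edgeR fit over all genes, all but CXCL10 and CCL3. Since the 10 were chosen on the same counts, how many of them lie past its threshold (an adjusted p of at most 0.05) was shaped by the choice, and nothing is read from the counts or shares that follow. In parent cells 7 of the 8 were past the threshold and lower (all but CSF1) and 0 higher, beside 36.3% of the 23045 genes tested, 18.2% higher and 18.2% lower. The median log2 fold change was -1.68 over the 8 genes and 0.04 over all genes. In knockout cells 1 of 8, LTB, was past it and lower and 0 higher, beside 12.9% of all genes, 6.11% higher and 6.83% lower, and 0 were without knockout labelled prexasertib replicate 1. For the difference between the lines in the treatment difference these were IL8, TNF, CXCL2 and CXCL3, all with the lower value in parent cells, beside 16.8% of all genes, 7.32% higher and 9.53% lower. Each comparison that uses the parent group labelled DMSO shares those 3 libraries with the others.

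**Figure D4:**
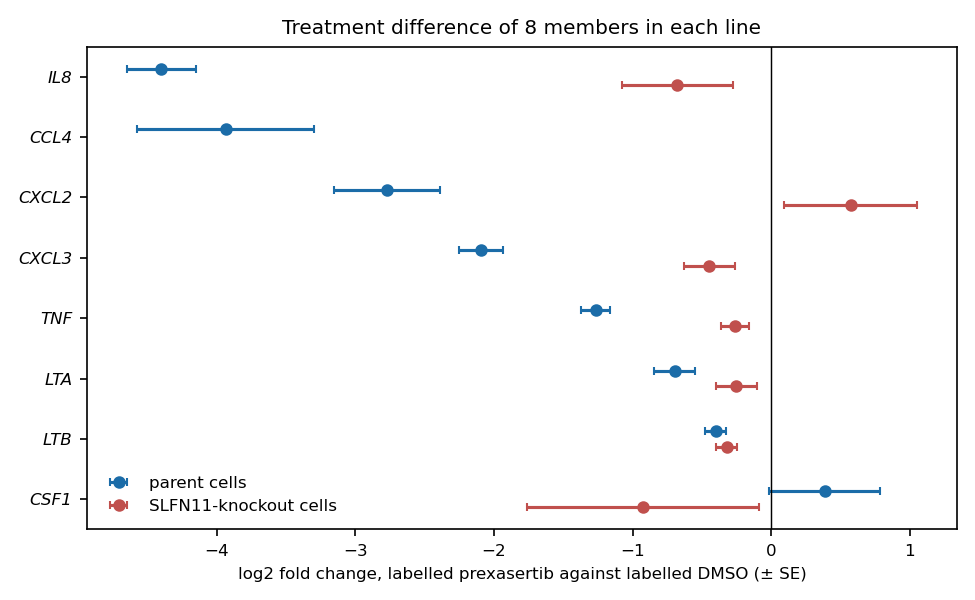
log2 fold change (point) with SE (bar) between labelled prexasertib and labelled DMSO for the 8 tested genes in parent and knockout cells, with 3 libraries per group; CCL4 has no point in knockout cells, where all libraries are at 0. Parent values run from -4.40 for IL8 to 0.39 for CSF1, and knockout values from -0.93 for CSF1 to 0.57 for CXCL2.

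Between the lines under labelled DMSO, 7 of 8 members were past the same threshold and lower in knockout cells (all but LTB) and 0 higher, beside 40.0% of all genes, 19.6% higher and 20.4% lower. The log2 fold changes were -4.92 ± 0.26 for IL8, -3.50 ± 0.40 for CXCL2, -2.35 ± 0.16 for CXCL3, -0.41 ± 0.14 for LTA and -0.07 ± 0.08 for LTB. Under labelled prexasertib these were 4 members (IL8, CXCL3, CCL4 and CSF1), all lower, beside 28.1% of all genes, 14.5% higher and 13.5% lower. The 4 became 2 without parent labelled prexasertib replicate 1 or knockout labelled prexasertib replicate 2 or 3. There IL8 differed by -1.19 ± 0.39 and CXCL3 by -0.70 ± 0.18, while TNF, LTA and LTB differed by 0.19 ± 0.11, 0.03 ± 0.15 and 0.01 ± 0.08. Without parent labelled prexasertib replicate 1 the value of IL8 was -0.85 ± 0.39.

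Across the 12 libraries, which share their group means, the members with a mean of at least 1 CPM varied together to different degrees. On log2(CPM + 1), IL8 and CXCL3 had a Pearson r of 0.987, TNF had 0.885 with IL8 and 0.834 with LTA, and LTB had 0.569 with IL8 and 0.572 with CXCL3. Among 15809 genes, those most like IL8 were CLUHP3 (r 0.994), HIST2H2AC (0.994) and HIST2H2AA4 (0.993). Those most like CXCL3 were ZNF550 (0.995), HKR1 (0.992) and TXNIP (0.989). For TNF they were DNAJB2 (0.989), ZNF839 (0.989) and ZNF547 (0.987), for LTA RP11-15A1.7 (0.961), RP11-18H7.1 (0.927) and CDC42SE1 (0.923), and for LTB POLR2C (0.976), TXNDC12 (0.972) and MTMR14 (0.969). These genes are named by the size of r alone, each over 12 libraries, and the 4 group means shape every such value.

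The pathway around the 10 genes was read from lists of receptors, relatives and regulators, with the edgeR test over all 23045 genes. All lists were chosen with earlier results of these data known, so every count of listed genes from here on is a description. In these lists fell and rose mean lower and higher under labelled prexasertib than under labelled DMSO. The library names in the titles would reverse both. NF-kappaB is a transcription factor family, several of whose subunits and inhibitors are its own targets. In parent cells 13 of 13 listed genes fell and 0 rose, with a median log2 fold change of -0.93 against 0.04 over all genes, of which 18.2% rose and 18.2% fell. In knockout cells 8 of 13 fell and 0 rose, with a median of -0.25 against 0 over all genes, of which 6.11% rose and 6.83% fell. RELB, a subunit of the non-canonical pathway, fell by 3.83 on the log2 scale in parent cells (35.3 ± 4.42 to 2.48 ± 0.276 CPM, SD, n = 3, edgeR adjusted p = 1.75e-17) and by 1.34 in knockout cells (3.94 ± 0.494 to 1.55 ± 0.293 CPM, adjusted p = 2.28e-07). NFKB2, its partner, fell by 2.91 (66.4 ± 3.56 to 8.81 ± 0.527 CPM) and by 0.87 (16.3 ± 0.521 to 8.89 ± 1.17 CPM). NFKBIA, the inhibitor that holds NF-kappaB in the cytoplasm, fell by 1.98 (131 ± 6.18 to 33.1 ± 2.68 CPM) and by 0.65 (52.8 ± 0.585 to 33.7 ± 0.492 CPM). As for TNF, these 3 genes had their highest level in parent cells labelled DMSO and their next highest in knockout cells labelled DMSO. Counts of 11 to 13 in parent and 6 to 10 in knockout cells were found over the 14 alternative settings.

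Among the other ligands of the TNF superfamily, 1 of 11 tested rose in parent cells (TNFSF14) and 2 fell (TNFSF9 and CD70), and in knockout cells 0 rose and 2 fell (TNFSF14 and TNFSF9). Over all genes 18.2% rose and 18.2% fell in parent cells, and 6.11% and 6.83% in knockout cells. TNFSF9, the ligand of the T-cell costimulator 4-1BB, fell from 2.58 ± 0.232 to 0.548 ± 0.04 CPM in parent cells (log2 -2.23 ± 0.20) and from 1.36 ± 0.054 to 0.695 ± 0.127 in knockout cells (-0.97 ± 0.20). TNFSF14, also called LIGHT, a further ligand of LTBR, rose from 3.38 ± 0.163 to 5.41 ± 0.547 CPM in parent cells (0.68 ± 0.12, edgeR adjusted p = 8.33e-05). In knockout cells it went from 6.05 ± 0.478 to 4.498 ± 0.608 CPM (-0.43 ± 0.12, adjusted p = 0.0176), a call lost without knockout labelled DMSO replicate 2 (-0.36), replicate 3 (-0.43) or knockout labelled prexasertib replicate 1 (-0.32), which leaves 1 ligand that fell. Of 10 tested interleukins, interferons and colony-stimulating factors, 2 rose and 3 fell in parent cells, and 1 rose and 0 fell in knockout cells. Without parent labelled DMSO replicate 1, 1 rose in parent cells. IL23A, a subunit of interleukin 23, fell from 3.34 ± 0.182 to 1.30 ± 0.354 CPM in parent cells (-1.37 ± 0.19) and had 1.62 ± 0.0603 and 1.48 ± 0.319 CPM in knockout cells. OSM, a cytokine of the interleukin 6 family, fell from 4.21 ± 0.022 to 2.19 ± 0.322 CPM in parent cells (-0.95 ± 0.15) and had 1.72 ± 0.188 and 1.96 ± 0.229 CPM in knockout cells. IL16, a T-cell attractant, rose in both lines (0.45 ± 0.06 and 0.29 ± 0.06). Of the 3 further CXC ligands tested CXCL1 alone was called, lower in both lines, and of 4 further CC, XC and CX3C ligands 0 were called in either line. The knockout call of CXCL1 rests on 11 reads against 0 (edgeR adjusted p = 0.0407), and no fold change is given for it. CCL5, a CC chemokine of T cells, had 8 to 27 reads per group, none of them outside a region shared with another gene.

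Of the receptors of the chemokine members, CXCR1, CXCR2 and CCR1 were scarce in these cells, while CXCR3 had group means of 0.543 to 1.55 CPM. CXCR1, a receptor of IL8, and CXCR2, a receptor of IL8, CXCL2 and CXCL3, had at most 0.107 and 0.179 CPM in a group mean. CCR1 had at most 0.0349 CPM. CXCR3, the receptor of CXCL10, was higher in knockout than in parent cells labelled DMSO (1.55 ± 0.365 against 0.543 ± 0.156 CPM, log2 1.52 ± 0.25, edgeR adjusted p = 1.96e-05). LTBR had at most 7 reads per group, and CSF1R between 0.124 and 0.346 CPM. The TNF receptors were present: TNFRSF1A rose in parent cells from 51.5 ± 1.59 to 60.9 ± 4.28 CPM (0.24 ± 0.06, adjusted p = 0.00185), with 45.9 ± 1.27 and 51.0 ± 3.17 in knockout cells. TNFRSF1B had 14.5 to 15.23 CPM in the 4 group means.

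In the whole list of chemokine receptors 5 of 13 tested rose in parent cells (CCR4, CCR7, CCR8, CCR9 and CXCR6) and 2 fell (CCR10 and CXCR4), while 2 rose and 0 fell in knockout cells. The shares over all genes were 18.2% in each direction in parent cells, and 6.11% higher and 6.83% lower in knockout cells. The count that rose in parent cells was 3 without parent labelled DMSO replicate 2, and the count that fell was 1 without parent labelled DMSO replicate 3 or parent labelled prexasertib replicate 2 or 3. CXCR4, the receptor of CXCL12, fell from 326 ± 1.23 to 209 ± 17.9 CPM in parent cells (-0.64 ± 0.05, edgeR adjusted p = 4.5e-10) and had 314 ± 7.7 and 290 ± 1.69 CPM in knockout cells. CCR7, the lymph-node homing receptor, rose from 16.6 ± 0.717 to 26.9 ± 0.214 CPM in parent and from 19.0 ± 1.67 to 23.6 ± 0.624 in knockout cells. CCR8 rose by 0.91 ± 0.11 and 0.64 ± 0.11. Of 13 tested receptors of the TNF superfamily and CSF1, 3 rose and 3 fell in parent cells, and 1 rose and 1 fell in knockout cells, which is near these shares. In knockout cells 2 rose without knockout labelled DMSO replicate 2 and 2 fell without knockout labelled prexasertib replicate 2, and 0 fell with limma on the authors' TPM. TNFRSF4, the costimulator OX40, fell from 4.49 ± 0.569 to 1.16 ± 0.173 CPM in parent cells (-1.96 ± 0.19) and had 1.61 ± 0.246 and 1.29 ± 0.362 in knockout cells. FAS, a death receptor, fell in both lines, from 26.8 ± 2.47 to 15.1 ± 0.36 CPM and from 29.9 ± 1.45 to 24.4 ± 1.21, and its call in knockout cells is lost with limma on TPM (adjusted p = 0.0748). TNFRSF8 (CD30) rose in parent cells by 0.53 ± 0.09.

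Factors that bind AU-rich elements set the lifetime of cytokine mRNAs. Of 11 tested, 1 rose and 4 fell in parent cells, and 1 rose and 2 fell in knockout cells, beside 18.2% higher and 18.2% lower over all genes in parent cells and 6.11% and 6.83% in knockout cells. The count that rose in parent cells was 2 without parent labelled prexasertib replicate 1 and 3 without replicate 2 or 3, and in knockout cells it was 0 without knockout labelled DMSO replicate 1. ZFP36 (tristetraprolin), which promotes decay of TNF mRNA, fell from 24.2 ± 1.58 to 10.0 ± 0.236 CPM in parent cells (-1.27 ± 0.08, edgeR adjusted p = 1.5e-12) and from 11.97 ± 0.689 to 9.37 ± 0.908 in knockout cells (-0.35 ± 0.08, adjusted p = 0.00414). ZC3H12A, an endonuclease that cuts cytokine mRNAs, fell from 15.9 ± 1.3 to 7.05 ± 0.572 CPM in parent cells and from 8.36 ± 0.314 to 6.54 ± 0.674 in knockout cells. The knockout call of ZC3H12A is lost without knockout labelled DMSO replicate 1 (-0.32), knockout labelled prexasertib replicate 1 (-0.34) or replicate 3 (-0.28), which leaves 1 gene that fell. ELAVL1 (HuR), which stabilises such mRNAs, rose from 73.8 ± 1.6 to 111 ± 11.5 CPM in parent cells and had 102 ± 0.846 and 113 ± 4.3 in knockout cells. Of 7 genes for the release and processing of TNF and chemokines, 2 rose and 2 fell in parent cells, and 1 rose and 0 fell in knockout cells. ADAM17, the protease that sheds TNF from the membrane, had 42.0 ± 0.312 and 38.2 ± 1.61 CPM in parent cells (-0.14 ± 0.05, adjusted p = 0.0462), a call lost in 6 of 14 alternative settings, among them without parent labelled DMSO replicate 3 (-0.13) and without parent labelled prexasertib replicate 3 (-0.15). ADAM10 rose by 0.20 ± 0.05 and 0.19 ± 0.05 in the 2 lines. Its parent call is lost in 1 of 14 alternative settings, without parent labelled DMSO replicate 2 (0.13). The knockout call is lost in 3 of 14, among them without knockout labelled DMSO replicate 3 (0.18), and the lowest knockout value over the 14 was 0.109. VAMP3, a vesicle protein of cytokine release, had 24.7 ± 0.21 and 28.1 ± 1.46 CPM in parent cells (0.18 ± 0.06, adjusted p = 0.0118), a call lost without parent labelled DMSO replicate 1 (0.15) or 2 (0.14) and without parent labelled prexasertib replicate 2 (0.15).

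**Figure D5:**
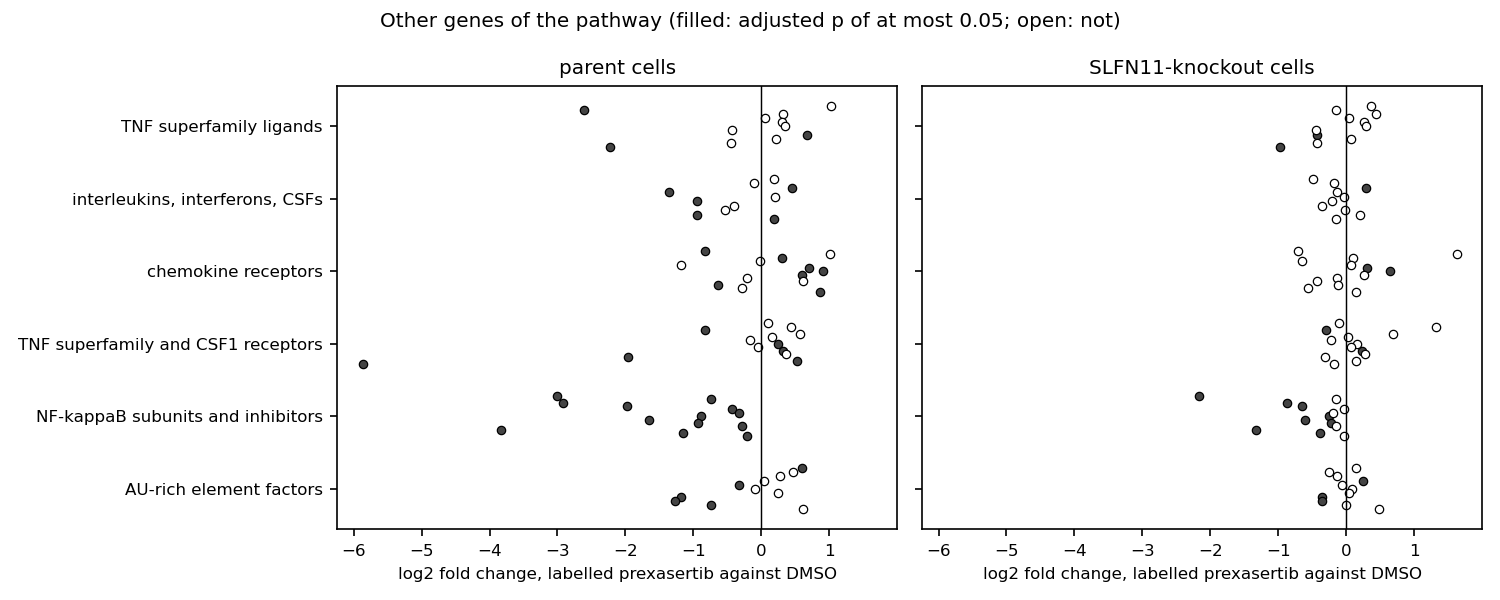
log2 fold change between labelled prexasertib and labelled DMSO of the tested genes of 6 pathway lists, 1 point per gene, in parent cells (left) and SLFN11-knockout cells (right); filled points passed the edgeR test at an adjusted p of at most 0.05 and open points did not. All 13 NF-kappaB genes lie below 0 and are filled in parent cells. There TNFRSF9, a low gene with a mean below 1 CPM, lies farthest left of all points, at -5.86 ± 0.77 (SE).

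The difference between parent and knockout cells in the treatment difference was called lower for 9 of 13 NF-kappaB genes and higher for 0, beside 9.53% and 7.32% of all genes, with a median of -0.71 over the 13 against 0.03 over all genes. Over the 19 alternative settings 9 to 10 of the 13 were called lower. For IL8, CXCL2, CXCL3 and TNF, the members past the threshold, the same quantity lay between -3.72 and -1.01. For the other members with a value it was -0.44 (LTA), -0.08 (LTB) and 1.31 (CSF1).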

How the data were processed

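TRIzol-extracted total RNA was sequenced in 1 pooled paired-end run, per the labels' protocols. The build was hg19, and STAR 2.5.4a, Picard 2.9.2, Trimmomatic 0.39 and Trim Galore 0.6.2 are named without roles, per the submitters' processing notes. The counter, annotation and strand setting are not given in the sources used here. The files deposited by the authors hold, per the file headers, read counts per gene (exonic, intronic, all, and exonic outside other genes) and exonic TPM values. Genes not listed in a file were taken as 0, 36 pseudoautosomal Y copies were left out of 44183 features, and 1 was added to the files' starts and ends.

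The main test was edgeR 4.0.16 in R 4.3.3 on exonic counts: filterByExpr (minimum count 10), TMM, 1 model of 4 group means over 12 libraries, robust quasi-likelihood F test, Benjamini-Hochberg adjustment over 23045 genes, threshold 0.05. It was tested on simulated data. The SE of an edgeR log2 fold change is the absolute value of that fold change divided by the square root of its F statistic. DESeq2 1.42.0, limma 3.58.1 on log2(TPM + 1), other filters, other read classes, fits to the compared groups, a replicate block and leaving out each library were alternatives. Within groups, libraries differed by more than sampling noise (chi-square divided by its degrees of freedom of at least 4.53). Promoter windows were aligned with Biopython 1.88. Figures used matplotlib 3.10.9.

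The 10 members and all gene lists were chosen with earlier results of these data known, and the alternatives for list counts and list genes were added after the data were seen. Apart from the members, the text names for each list the 3 genes with the smallest p in parent cells (called, mean of at least 1 CPM), the members' receptors and nearest relatives, the 3 genes most like each member of at least 1 CPM, and SLFN11. Genes given beyond this, in counts of 5 or fewer and TNFRSF9, were named after their values were seen. 1 receptor of the members is not reported here. Protein sequences were not used here.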

Additional observations from a re-analysis of the deposited data

Results flagged for a closer look

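The difference between parent and knockout cells in the treatment difference is in log2, labelled prexasertib against labelled DMSO, negative where lower in parent cells. It passed the edgeR test for 17 pathway genes that are not among the 10 and were named by the rule given above, beside 16.8% of all genes. All of the 17 but CXCR3 were named for a small p in parent cells. That comparison is part of this difference, so nothing is read from their number. CD70 (-2.46, edgeR adjusted p = 0.00472) and TNFRSF9 (-5.68, adjusted p = 0.00448), named above outside that rule after their values were seen, passed it too. The difference was -2.49 for RELB, -2.04 for NFKB2 and -1.33 for NFKBIA, the NF-kappaB genes. It was -1.26 for TNFSF9 and 1.10 for TNFSF14, which rose in parent cells and fell in knockout cells. It was -1.23 for IL23A and -1.14 for OSM. Among receptors it was -1.64 for TNFRSF4, -0.54 for FAS, -0.52 for CXCR4, 0.39 for CCR7, 0.39 for TNFRSF8 and 1.04 for CXCR3. Among regulators of mRNA decay and release it was -0.92 for ZFP36, -0.82 for ZC3H12A, 0.45 for ELAVL1 and 0.28 for VAMP3. The signs depend on the treatment labels, which the library names contradict. The calls of TNFRSF8 (edgeR adjusted p = 0.0381), CXCR3 (0.0439) and VAMP3 (0.0178) are each lost in 9 of the 12 alternatives that leave out 1 library, that of CCR7 is lost with all reads of the gene counted, and that of FAS with limma on TPM. Of the 17 genes, the 14 other than TNFRSF8, CXCR3 and VAMP3 kept their call in each alternative that leaves out 1 library.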

How the results depend on the processing

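With limma on the authors' TPM the calls shifted upward: 6364 genes higher and 2505 lower in parent cells (71.8% higher against 50% with edgeR, median log2 difference 0.14 against 0.04), 9197 and 1833 for knockout against parent under labelled DMSO (83.4% against 49%, median 0.23), 6358 and 1327 under labelled prexasertib (82.7% against 51.8%, median 0.13), 2905 and 1128 for the difference between lines (72% against 43.4%, median 0.12), and 1031 lower in knockout cells. There 1 member was called higher in parent cells (CSF1), 1 between lines under labelled DMSO (LTB, 0.204) and 1 under labelled prexasertib (TNF), with 1 lower in the last. TPM also reversed CXCL2 between lines under labelled prexasertib (0.0018), LTB in the difference between lines (0.0429) and ADAM17 in parent cells (0.00703). A mean CPM of at least 1 left 4 members called lower between lines under labelled DMSO and 2 under labelled prexasertib, since fewer members were tested. Without a filter 2 members were called lower in knockout cells. Fits to the compared groups gave 2402 genes higher, 2476 lower and 2 members lower in knockout cells, and 2 members lower between lines under labelled prexasertib. LTB between lines under labelled prexasertib (0.0972 at the highest when 1 library is left out) reversed with mean CPM of at least 1 (-0.00133), with reads outside other genes (-0.00389), and without parent labelled prexasertib replicate 1 (-0.0875), knockout labelled prexasertib replicate 2 (-0.00105) or 3 (-0.0275). LTA there reversed without the same parent replicate 1 (-0.0771) or knockout replicate 3 (-0.132; 0.149 at the highest when 1 library is left out), and CXCL2 without that parent replicate (0.509; -0.488 at the lowest). CSF1 in knockout cells reversed without knockout labelled DMSO replicate 2 (0.0452; -1.59 at the lowest). Leaving out 1 library gave 954 to 2137 genes higher for the difference between lines, 857 to 1134 higher and 1048 to 1292 lower in knockout cells, and, of members lower, 0 to 1 in knockout cells and 2 to 4 between lines under labelled prexasertib. Where not stated otherwise above, the cause was not tested. Members called lower in parent cells numbered 7 under all alternatives but a mean CPM of at least 1, which tested fewer and left 5. These member counts describe the choice of members. Pathway list counts that moved by over 1.5 times ranged, in parent cells, over 1 to 3 higher for TNF superfamily ligands (1 reported), 1 to 3 higher for interleukins, interferons and colony-stimulating factors (2), 3 to 5 higher and 1 to 4 lower for chemokine receptors (5 and 2) and 1 to 3 higher for AU-rich element factors (1). In knockout cells they ranged over 0 to 1 higher and 1 to 2 lower for the ligands (0 and 2), 0 to 1 lower for interleukins and for chemokine receptors (0 each), 1 to 2 higher and 0 to 2 lower for receptors of the TNF superfamily and CSF1 (1 each), and 0 to 3 higher and 1 to 4 lower for AU-rich element factors (1 and 2).

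Replicate numbers did not pair the libraries: same-numbered libraries had correlations of -0.241 to 0.164, above 0.1 in 4 of 18 pairs, and 0 libraries correlated best with their own number in every other group. With the replicate block, 7 members were lower in parent cells and 1 in knockout cells, and 1415 genes were higher and 1616 lower in knockout cells. With 3 libraries per group, genes such as CXCL10 and CCL3, at 6 and 4 reads in all, are below what this depth can compare.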
